A study of Mus musculus with 60 samples.

Results

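Among the 60 brain libraries of this RNA-Seq series, 30 had cortex-like expression (Slc17a7 above 100 FPKM, where FPKM is fragments per kilobase of transcript, relative to a library's mapped fragments). These were ordered by Mobp, a gene of myelin-forming oligodendrocytes, and the 8 libraries with the highest Mobp (Mobp-high) were set against the 8 with the lowest (Mobp-low). The other 14 cortex-like libraries are the middle of that order, and the 30 striatum-like libraries had no part in the choice. The aim was to describe how much the share of myelinated tissue differed between dissections of cortex. The mice were 3 months old and of the strain c57BL-6N, and the material was total RNA depleted of rRNA. All 16 libraries carry labels of the Δ12 line, whose Htt allele lacks part of exon 12 in every cell of the animal and derives from embryonic stem cells edited with CRISPR/Cas9. The Mobp-high group held 2 libraries labelled +/+, 5 labelled Δ12/+ and 1 labelled Δ12/Δ12, and the Mobp-low group held 5, 2 and 1. Tissue was labelled cortex in 3 and striatum in 5 Mobp-high libraries, and 4 and 4 in the Mobp-low group. Labelled males made up 7 of the 8 Mobp-high and 3 of the 8 Mobp-low libraries. The striatum-like libraries were those of the KO line (12 labelled +/+ and 12 labelled KO/+, an allele that lost the splice donor of the same exon) and 6 labelled Δ12/Δ12. Groups are named by their labels, although Slc17a7 and Drd2 go against the labelled tissue in 15 of the 30 cortex-like libraries and the transcripts of Xist and Ddx3y go with the labelled sex in 13. The titles give the libraries labelled cortex and striatum the same mouse numbers, so the 30 cortex-like libraries carry the labels of 15 animals with 2 libraries each, and so do the 30 striatum-like ones.

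Myelin is the lipid-rich membrane that oligodendrocytes wrap around axons, and it is dense in the corpus callosum beneath the cortex and sparser in the grey matter above. Mobp and Cnp encode structural proteins of the sheath, and Mag and Mog encode adhesion and surface proteins at its innermost and outermost layers. The lineage runs from precursors through newly forming to mature oligodendrocytes, under transcription factors that include Sox10, Olig2 and Myrf. In bulk tissue, fewer oligodendrocytes and less RNA per oligodendrocyte cannot be told apart.

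The start regions of 3 genes are shown since Mobp set the order of the libraries, Mog is a second myelin gene that did not follow it, and Apod, a lipid carrier of mature oligodendrocytes, did. The RefSeq windows hold 250 bases before and 50 after each start site (GRCm38.p6, each gene's own strand): chr9:120149492-120149791 forward for Mobp, chr17:37023349-37023648 reverse for Mog and chr16:31314759-31315058 reverse for Apod. Capitals mark SOX-type letters, ACAAAG or ACAATG on either strand.
Mobp: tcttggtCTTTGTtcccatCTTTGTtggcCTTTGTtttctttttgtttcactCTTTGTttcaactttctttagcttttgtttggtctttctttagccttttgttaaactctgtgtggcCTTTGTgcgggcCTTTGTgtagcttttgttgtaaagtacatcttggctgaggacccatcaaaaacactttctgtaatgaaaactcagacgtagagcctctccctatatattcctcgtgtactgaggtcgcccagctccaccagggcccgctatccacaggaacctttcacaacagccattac
Mog: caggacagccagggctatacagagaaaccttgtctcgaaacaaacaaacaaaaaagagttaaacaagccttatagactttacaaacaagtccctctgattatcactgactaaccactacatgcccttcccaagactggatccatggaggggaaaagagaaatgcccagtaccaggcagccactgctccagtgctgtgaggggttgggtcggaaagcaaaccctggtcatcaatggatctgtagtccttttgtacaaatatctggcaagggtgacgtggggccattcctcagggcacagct
Apod: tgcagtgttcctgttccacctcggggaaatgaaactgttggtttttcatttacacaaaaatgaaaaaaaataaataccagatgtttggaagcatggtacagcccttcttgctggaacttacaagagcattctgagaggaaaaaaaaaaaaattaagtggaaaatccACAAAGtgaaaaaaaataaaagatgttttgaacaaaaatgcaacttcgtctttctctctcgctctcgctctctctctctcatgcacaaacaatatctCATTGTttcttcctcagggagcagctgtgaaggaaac
The Mobp window held 6 matches, the first base of each between 243 and 120 bases before the start site, the Mog window 0 and the Apod window 2. Such letters are common: 9394 of 32851 RefSeq windows (28.6%) held at least 1 match. Over Mobp itself and the sheath, lipid, premyelinating and other oligodendrocyte genes with an entry, 15 of 36 genes (41.7%) held a match in any window, against 31.7% of all 27025 genes. The MYRF-type letters CTGGCAC, searched on both strands, were in none of the 3 windows and in 5.01% of all windows, and 5 of the 36 genes (13.9%) held a match in any window, against 5.73% of all genes. A match is a description of letters and not a bound site.

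The order by Mobp was wide and had 1 library apart from the rest. Values are FPKM divided by a scaling factor per library (rescaled FPKM), and differences are between group medians of log2(rescaled FPKM + 0.5), which understates the change of low genes. Mobp (ENSMUSG00000032517, chromosome 9 from 120149742 to 120181484, GRCm38) was between 41.7 and 63.2 in the Mobp-low group (median 49.5) and between 84.6 and 133 in the Mobp-high group (median 90.2), which is what the choice used. The edge of the high group lay between 84.6 and 83.5, and that of the low group between 63.2 and 63.7, so the order has no gap at either edge. All 30 cortex-like libraries were at 120.8 FPKM of Slc17a7 or above, and the striatum-like ones at 64.8 or below. In the striatum-like libraries, Mobp was between 195.0 and 347 (median 272), above every cortex-like library. The interval bounds deposited with each FPKM lay 4.36% to 6.46% above Mobp in the cortex-like libraries, narrower than the gap between the group medians.

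**Figure D1:**
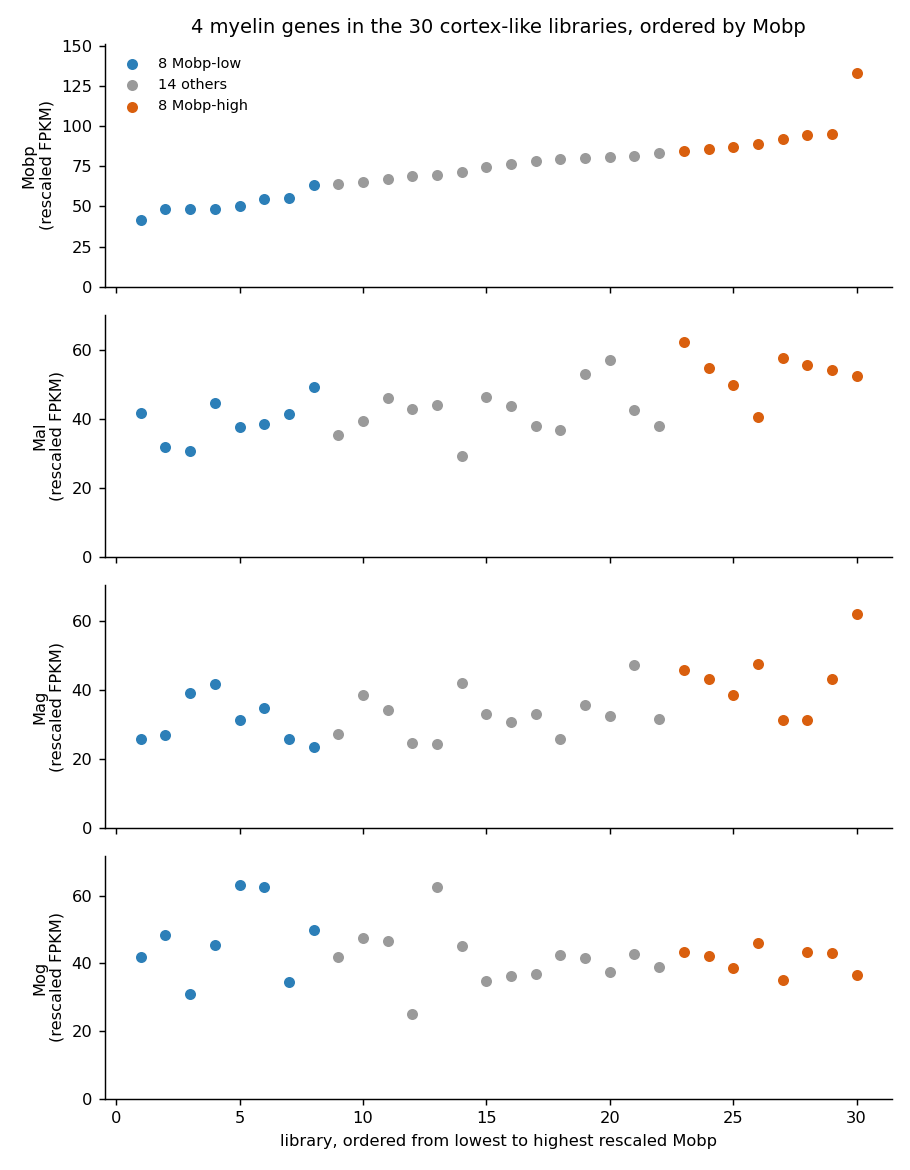
Rescaled FPKM of Mobp, Mal, Mag and Mog (vertical axes) in the 30 cortex-like libraries in the order of Mobp (horizontal axis); each point is 1 library. Mobp climbs by construction, Mal and Mag are higher at the right on the whole, and Mog is spread from 31.0 to 63.2 in the Mobp-low libraries and from 35.0 to 46.1 in the Mobp-high ones.

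The library labelled striatum Δ12/+ male 3 had the highest Mobp (133) and also transcripts of striatum and choroid plexus. Its Drd2, a dopamine receptor of striatal neurons, was at 15.9 against at most 2.61 in the Mobp-low group, and its Ttr, the main transcript of choroid plexus, was at 364 against at most 64.8. Its Slc17a7 was at 104, the lowest of the 30. The results below were also computed without it. Depth was estimated in units of 1e6 fragments, at 12.7 to 16.1 in the Mobp-low and 13.4 to 19.4 in the Mobp-high libraries. The scaling factor was between 1.13 and 1.33 in the Mobp-high group and between 0.975 and 1.23 in the Mobp-low group. The 5 short structural RNAs measured, such as Rpph1 and Rn7sk, summed to a median of 4065140 rescaled FPKM in the Mobp-high and 7228450 in the Mobp-low group. The part of these library measures in the differences was not tested.

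The second marker of the comparison, Mog (ENSMUSG00000076439, chromosome 17 from 37010743 to 37023398), did not follow the order by Mobp. Mog ranged from 31.0 to 63.2 (median 46.9) in the Mobp-low group and from 35.0 to 46.1 (median 42.6) in the Mobp-high group. The difference of medians was -0.14 (0.12 on FPKM as deposited, where the median of all genes was 0.16, and -0.0070 with quantile normalization), and the groups overlapped throughout. Of the 8 cortex-like libraries with the highest Mog, 4 were Mobp-low and 1 was Mobp-high, and of the 8 with the lowest Mog, 2 were in each group. The upper bound of the deposited interval lay 8.12% to 12.7% above Mog and covers counting error only. The groups are therefore called here by Mobp and not by myelin. Between the cortex-like and striatum-like libraries Mog also ran counter to Mobp, since its median was 42.3 in the first and 31.5 in the second. Both sets hold libraries labelled cortex and libraries labelled striatum. The sets differ in labelled line, median depth (14.4 against 18.2) and median scaling factor (1.15 against 0.891). The part of these in the difference of Mog was not tested.

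Other proteins of the sheath were on balance higher in the Mobp-high group, with overlap at every gene. Among the 13 sheath genes compared, 10 had a higher median in the Mobp-high group, and the list's median difference was 0.22 against -0.02 over all 15231 genes compared. None of the 13 separated the groups, where 0.125% of all genes had all 8 Mobp-high libraries above all 8 Mobp-low ones and 0.0985% had them all below. On FPKM as deposited the sheath median was 0.38 and that of all genes 0.16, and with quantile normalization they were 0.31 and 0.02. When the libraries were ordered by Mog in place of Mobp, the medians were 0.02 for the sheath genes, 0.03 for the lipid genes and -0.03 for the other genes of mature oligodendrocytes described below, with Mal at -0.12. The shares of all genes are given for scale, since the libraries were chosen on an oligodendrocyte gene.

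Mag, the adhesion protein next to the axon, was between 23.5 and 41.8 (median 29.1) in the Mobp-low group and between 31.3 and 62.0 (median 43.2) in the Mobp-high group, a difference of 0.57. Mal, a proteolipid of compact myelin, was between 31.0 and 49.3 (median 40.1) and between 40.8 and 62.3 (median 54.6), a difference of 0.44, and 6 of the 8 cortex-like libraries with the highest Mal were Mobp-high. In both genes the upper libraries were mostly Mobp-high and the ranges overlapped. Cd9, a membrane tetraspanin, differed by 0.38 and Ermn, a cytoskeletal protein of myelinating cells, by 0.35. At the other end, Hapln2, a matrix protein of the node of Ranvier, differed by -0.16 and Opalin, a membrane glycoprotein of oligodendrocytes, by -0.06.

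Genes of myelin lipids and other genes of mature oligodendrocytes resembled the sheath list. Of the 8 lipid genes, 7 had a higher median in the Mobp-high group (list median 0.22). Cers2, which makes the very long ceramides of myelin, was between 6.32 and 9.03 (median 7.79) in the Mobp-low and between 7.40 and 14.3 (median 11.4) in the Mobp-high group, a difference of 0.52. Elovl1, which elongates their fatty acids, differed by 0.47, Gltp, a glycolipid carrier, by 0.33, and Elovl7 by 0.22. Elovl1 was at low levels and overlapped, between 0.476 and 1.38 in the Mobp-low and between 0.394 and 2.37 in the Mobp-high group. Without the library striatum Δ12/+ male 3, the difference of Gltp was 0.18. Of the 18 other genes of mature oligodendrocytes, 16 had a higher median (list median 0.25). Of the 18, 2 separated the groups with all Mobp-high libraries above, against 0.125% of all genes.

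Those 2 genes were Apod and Il33. Apod (ENSMUSG00000022548, chromosome 16 from 31296192 to 31314808), the lipid carrier whose start region is shown above, was between 20.2 and 27.7 (median 24.7) in the Mobp-low group and between 32.0 and 50.0 (median 34.9) in the Mobp-high group, a difference of 0.49. Il33 (ENSMUSG00000024810, chromosome 19 from 29925114 to 29960718), a nuclear alarmin that oligodendrocytes hold in the brain, was between 3.76 and 6.11 (median 5.41) and between 7.46 and 9.92 (median 8.50), a difference of 0.61. Klk6, a protease secreted by mature oligodendrocytes, had the widest difference of the list, 0.90, at low levels: between 0.355 and 2.81 (median 0.894) and between 1.66 and 3.19 (median 2.08), with overlap. Evi2a, a membrane protein, differed by 0.57. Ppp1r14a, a phosphatase inhibitor, went the other way, with a median of 27.9 in the Mobp-low and 21.3 in the Mobp-high group and a difference of -0.38.

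Another gene that separated the groups came from the list of newly forming oligodendrocytes. Bcas1 (ENSMUSG00000013523, chromosome 2 from 170346991 to 170427845), which is made in myelinating and early oligodendrocytes, was between 11.7 and 14.6 (median 13.3) in the Mobp-low group and between 19.1 and 28.6 (median 22.7) in the Mobp-high group. Its difference was 0.75, the groups did not overlap, and 6 of the 8 cortex-like libraries with the highest Bcas1 were Mobp-high. The other members compared, Neu4, Enpp6 and Gpr17, which mark the same stage, differed by -0.20, -0.13 and -0.03, so the median of the 4 genes was -0.08 (0.16 on FPKM as deposited, the median of all genes). Of the 6 listed, Bmp4 and Tcf7l2 were below the minimum of 0.5.

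**Figure D2:**
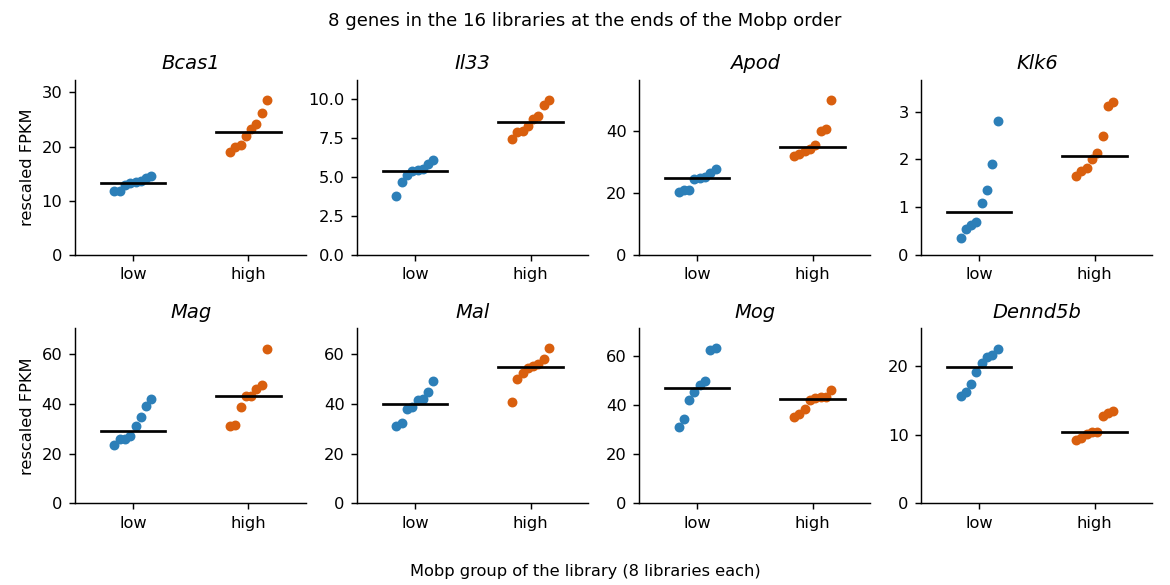
Rescaled FPKM (vertical axes, from 0) of 8 genes in the 8 Mobp-low and 8 Mobp-high libraries; each point is 1 library and each bar the group median. Bcas1, Il33, Apod and Dennd5b do not overlap between the groups, Klk6, Mag and Mal do, and the Mog values of the Mobp-high libraries lie within the range of the Mobp-low ones.

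With all 16 libraries, transcription factors had a median near that of all genes, while the precursor list lay nearer to the sheath. Of the 8 factors compared (1 of 9, Zfp488, was below the minimum), 2 had a higher median in the Mobp-high group, and the list's median was -0.06 (0.06 on FPKM as deposited). Without striatum Δ12/+ male 3 the list's median was -0.15, against -0.02 for all genes. Nkx6-2, a homeobox factor, differed by -0.39, Sox8 by -0.31, Olig2 by 0.27 and Sox10 by 0.24 (0.15 without striatum Δ12/+ male 3), and each of the 4 overlapped. Of the 6 precursor genes, 5 had a higher median (list median 0.18, and 0.09 without striatum Δ12/+ male 3), led by the matrix proteoglycan Vcan at 0.36, which overlapped and was 0.22 without that library. Lhfpl3, a tetraspan-like protein of precursors, differed by 0.29, Cacng4, an AMPA receptor subunit, by 0.21 and C1ql1, a secreted synaptic organiser, by 0.15. Without that library, Cacng4 was at -0.02. The 16 genes of cholesterol synthesis and uptake, which myelination draws on, had a median of 0.06. The widest were Nsdhl at 0.44, Lss at -0.39, Idi1 at 0.30 and Hmgcs1 at 0.25, with overlap in each.

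Apart from choroid plexus, which is described below, the medians of the lists of other cells ran from -0.12 to 0.16, against -0.02 over all genes. Upper layers and interneurons were the highest of these, above the upper quartile of all genes at 0.11. Without striatum Δ12/+ male 3 their medians were 0.11 and 0.10. The signs depend on the scaling: on FPKM as deposited the median of all genes moved to 0.16, and no list of other cells named here stayed below 0. The list medians were -0.04 for 9 astrocyte genes, -0.09 for 5 genes of fibrous astrocytes (the type of white matter), 0.00 for 10 microglial genes, 0.10 for 8 endothelial and 0.10 for 6 mural genes. Of the 5 fibrous astrocyte genes, 2 had a higher and 3 a lower median in the Mobp-high group. Gfap, the filament protein of fibrous astrocytes, was between 17.3 and 30.5 (median 20.8) in the Mobp-low and between 20.3 and 33.4 (median 26.5) in the Mobp-high group. Vim differed by 0.28, Id1 by -0.35 and Cd44 by -0.15. The widest astrocyte gene was Fgfr3, a growth factor receptor, at -0.80, with a median of 22.3 in the Mobp-low and 12.6 in the Mobp-high group and overlap. For neurons, the list medians were -0.05 for excitatory cells, 0.16 for upper layers, 0.08 for layer 4, 0.00 for layer 5, 0.02 for layer 6, -0.06 for layer 6b at the white matter border and 0.15 for interneurons. They were -0.03 for 12 striatal, -0.11 for 5 hippocampal and 0.04 for 2 thalamic genes, -0.12 for 9 leptomeningeal, -0.05 for 6 ependymal and -0.10 for 5 red cell genes. No gene of these lists separated the groups, where 0.125% of all genes had all Mobp-high libraries above and 0.0985% all below. At shares that small, lists of this size would mostly hold none. The layer 6b marker Ctgf was between 18.3 and 29.2 in the Mobp-low and between 17.1 and 27.9 in the Mobp-high group, a difference of -0.17.

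A few lists beyond oligodendrocytes differed by as much as the sheath or more. The 13 protein genes of the mitochondrial genome had a median difference of 0.45, 12 of them above 0, and summed to 2784 to 4897 in the Mobp-high and 1866 to 3811 in the Mobp-low group. The mitochondrial median was 0.76 on FPKM as deposited and 1.15 with quantile normalization. The 5 short structural RNAs were all lower, with a median of -0.41, but 0.20 with quantile normalization. The 11 immediate early genes, which report recent neuronal activity, had a median of -0.23 (0.11 on FPKM as deposited), with Nr4a1 at -0.69, Egr2 at -0.60, Arc at -0.60 and Junb at -0.58. Their median was -0.39 without striatum Δ12/+ male 3. The 6 choroid plexus genes compared (of 9) had a median of 0.37, with a sum of 5.21 to 386 in the Mobp-high and 3.34 to 70.6 in the Mobp-low group. Ttr alone differed by 2.99 (1.26 without that library), and overlapped. When ordered by Mog, the list medians were -0.41 for the mitochondrial genome, 0.17 for the short RNAs, -0.07 for the immediate early genes and 0.03 for choroid plexus. The part of these RNAs in the differences of oligodendrocyte genes was not tested.

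**Figure D3:**
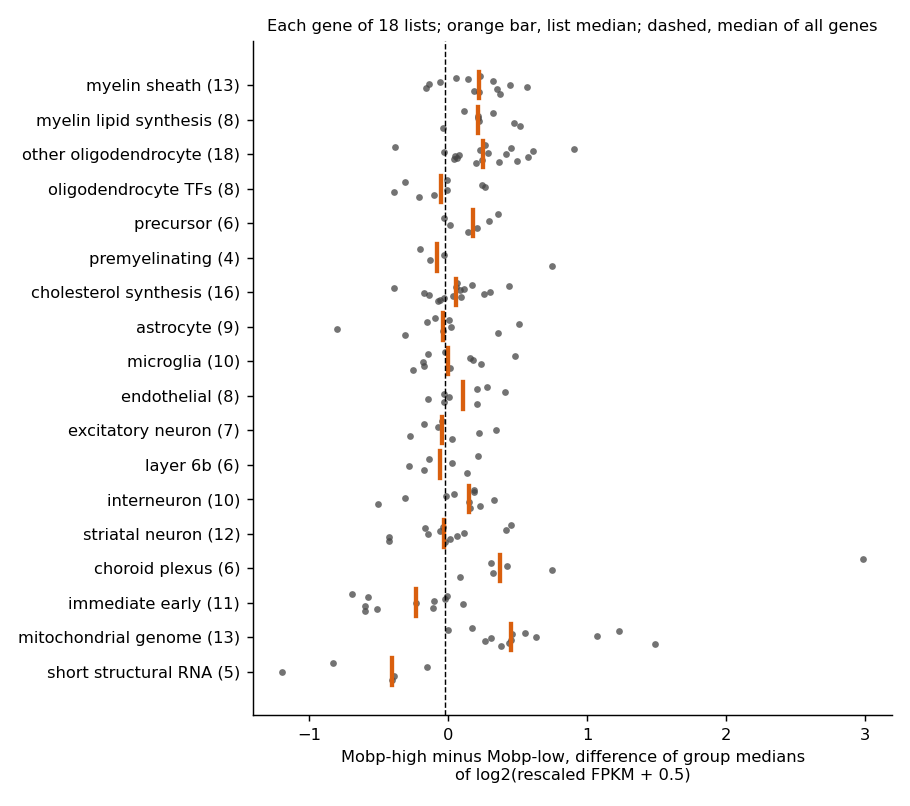
Difference of group medians, Mobp-high minus Mobp-low, in log2 units (horizontal axis) for each gene (points) of 18 lists (rows, with the number of genes compared). The orange bar is the list median and the dashed line the median of all 15231 genes at -0.02. The sheath, lipid and other mature oligodendrocyte lists lie at 0.22, 0.22 and 0.25, and the mitochondrial list at 0.45.

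Over all genes, 19 had every Mobp-high library above every Mobp-low one and 15 had them all below. Outside the lists, the widest of the first kind were Coq7, a ubiquinone synthesis enzyme, at 0.72, and Cwc15, a splicing factor, at 0.72. Cwc15 was between 4.20 and 7.17 (median 5.35) in the Mobp-low and between 7.85 and 15.5 (median 9.16) in the Mobp-high group. Then came Rpl4, a ribosomal protein, at 0.50, the histone variant gene H2afy at 0.46, the actin regulator Evl at 0.42, the creatine synthesis enzyme Gatm at 0.41, Eny2 at 0.41, Paf1 at 0.40, Fam107a at 0.40 and Praf2 at 0.37. The widest of the second kind was Dennd5b, a regulator of Rab proteins, between 15.7 and 22.6 (median 19.9) in the Mobp-low and between 9.23 and 13.5 (median 10.4) in the Mobp-high group, a difference of -0.89. The others were Rab5c, an endosomal GTPase, at -0.42, Zfp809 at -0.42, the sodium channel subunit Scn3b at -0.40, the lipid kinase Pi4ka at -0.38, Rfx7 at -0.37, Ddx23 at -0.34, Extl1 at -0.33, the synaptic vesicle protein Vamp2 at -0.32 and Ywhag at -0.29. With FPKM as deposited, where the order by Mobp keeps 7 of 8 libraries at each end, the counts were 69 above and 0 below, and with quantile normalization 47 and 3. When libraries were ordered by Mog instead, the counts were 0 above and 5 below, and only 1 of the 8 high and 2 of the 8 low libraries were those of the order by Mobp.

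Htt and transcripts of the sex chromosomes were also compared. Htt, the edited gene, was between 6.66 and 11.2 (median 10.0) in the Mobp-low and between 4.81 and 11.0 (median 8.78) in the Mobp-high group, a difference of -0.18 with overlap. Slc17a7, which fixed the set of libraries, differed by -0.18 (0.11 on FPKM as deposited and 0.29 with quantile normalization). Xist, from the inactive X chromosome, was above the Y-linked Ddx3y in 6 of the 8 Mobp-low and 3 of the 8 Mobp-high libraries, and these transcripts went with the labelled sex in 3 and 4 libraries.

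Whether the same genes moved with Mobp was tested in the libraries of neither group. In the 14 other cortex-like libraries, a slope on log2 Mobp was fitted to each gene with limma and Benjamini-Hochberg adjustment. Of 15153 genes, 0 passed an adjusted p of 0.05 (0%), with 459 at an unadjusted p under 0.05. Mobp spans only 63.7 to 83.5 in these libraries, and the median standard error of a slope was 0.56 per doubling of Mobp, so slopes of the size found in the striatum-like libraries were not detectable there. The slopes were 0.85 (standard error 0.36) for Bcas1, 0.81 (0.45) for Apod, 0.58 (0.50) for Il33, 0.48 (0.60) for Mag and -0.46 (0.62) for Mog, and the median of the 13 sheath genes was 0.02.

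In the 30 striatum-like libraries, Mobp spans 195.0 to 347 and the median standard error was 0.17. Of 15958 genes tested with limma, 964 rose with Mobp (6.04%) and 605 fell (3.79%) at an adjusted p under 0.05. Most genes of the oligodendrocyte lists rose, apart from the precursors: 11 of 13 sheath genes, 7 of 8 lipid genes, 16 of 18 other mature genes, 6 of 9 transcription factors and 4 of 5 premyelinating genes. Of the 6 precursor genes 1 rose, and no gene of the 6 lists fell. The median slopes were 0.83, 0.64, 0.74, 0.56, 0.64 and 0.24, against -0.04 for all genes.

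Here Mog rose with Mobp, by 0.83 per doubling (standard error 0.18, adjusted p = 0.0025 from limma). Mal rose by 0.94 (standard error 0.07), Ermn by 0.95 (0.13) and Mag by 0.91 (0.13). Over all genes, 6.04% rose and 3.79% fell at an adjusted p under 0.05. Of the 19 genes with every Mobp-high library above every Mobp-low one, 5 rose and 0 fell at that threshold. Of the 15 in the other direction, 1 fell and 1 rose. Those 5 included the oligodendrocyte genes Apod, which rose by 0.99 (standard error 0.11), Bcas1, by 0.97 (0.10), and Il33, by 0.91 (0.14). The others were Gatm, which rose by 0.72, and Coq7, by 0.55, while the adjusted p from limma was 0.11 for Cwc15, 0.14 for Rpl4 and 0.63 for Dennd5b. Tppp and Cd9 were the sheath genes that did not pass, with slopes of 0.09 and 0.35. Whether the slope of a gene differs between cortex-like and striatum-like libraries was not tested.

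Genes of neighbouring regions moved with Mobp in the striatum-like libraries too. The 4 thalamic genes all rose, among them Prkcd, a kinase of thalamic relay neurons, by 4.18 and the glutamate transporter Slc17a6 by 3.74 per doubling of Mobp. Of 7 excitatory genes 6 fell, with a median slope of -2.29. Of 12 genes of striatal projection neurons, 2 fell. With Slc17a7 in the fit 9 of them fell, where 748 of all 15958 genes fell and 974 rose. Mobp was between 195.0 and 300.0 (median 255) where KO/+ was labelled, between 219 and 347 (median 292) in those labelled +/+ of the KO line and between 244 and 340.4 (median 272) in those labelled Δ12/Δ12. With labelled line and genotype in the fit, 247 of the 15958 genes rose and 41 fell. Those that rose included 7 of 13 sheath genes (Mog not among them), 3 of 8 lipid genes and 10 of 18 other mature genes. They also included 1 of 9 factors and 3 of 5 premyelinating genes. With Slc17a7 in the fit, 12 of 13 sheath genes were among the 974 that rose. On FPKM as deposited 7307 genes rose and 376 fell. Without the library striatum KO-line +/+ male 1, 287 genes fell, and without cortex Δ12-line Δ12/Δ12 female 1, 358.

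**Figure D4:**
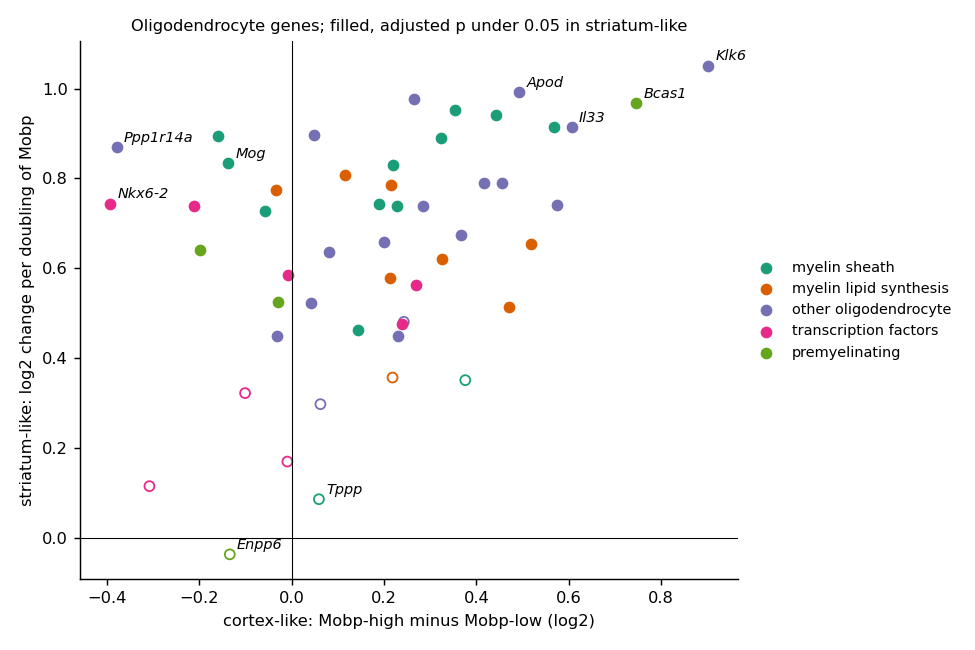
Difference between Mobp-high and Mobp-low cortex-like libraries (horizontal axis, log2) against the change per doubling of Mobp in the 30 striatum-like libraries (vertical axis, log2) for genes of 5 oligodendrocyte lists; each point is 1 gene, filled where the adjusted p of the slope is under 0.05. Mog lies at -0.14 and 0.83, and Bcas1 at 0.75 and 0.97.

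The labels of the cortex-like libraries were compared in 1 limma fit with labelled genotype, tissue and sex. Mobp was between 48.1 and 88.7 (median 72.7) in the 12 libraries labelled +/+, between 41.7 and 133 (median 75.2) in the 12 labelled Δ12/+ and between 63.2 and 94.2 (median 76.4) in the 6 labelled Δ12/Δ12. The groups overlap, and the log2 difference from +/+ was 0.19 (standard error 0.14, adjusted p = 0.74) for Δ12/+ and 0.06 (standard error 0.18, adjusted p = 0.92) for Δ12/Δ12. Between labelled tissues it was 0.16 (standard error 0.12, adjusted p = 0.85), higher in striatum. Between labelled sexes it was -0.31 (standard error 0.14, adjusted p = 0.61). The median was 66.4 for the 12 labelled female and 80.9 for the 18 labelled male. Unadjusted, the p from limma for Mobp was 0.032 for sex, 0.18 for Δ12/+, 0.76 for Δ12/Δ12 and 0.21 for tissue. Mog differed from +/+ by -0.08 (standard error 0.12, adjusted p = 0.88) in Δ12/+ and by -0.06 (standard error 0.16, adjusted p = 0.91) in Δ12/Δ12, and neither gene passed in any of the 4 comparisons.

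Within labels, 4 of the 6 libraries labelled cortex +/+ were Mobp-low, at 48.1 to 50.5, and female 1 of that group was Mobp-high, at 85.5. The 6 libraries labelled striatum Δ12/+ spanned 41.7 to 133 and held both the lowest and the highest Mobp of all cortex-like libraries. The p-values measure the spread between these libraries, and the fit counts the 2 libraries of a labelled animal as independent. With the labelled animal as a random effect in limma, an alternative chosen after the data were seen, the estimated correlation within a labelled animal was -0.04. In the striatum-like slopes it was 0.07, with 929 genes that rose and 585 that fell. Sex-linked transcripts conflicted within some labelled animals. For +/+ male 2, Xist was at 14.5 and Ddx3y at 0.021 in the library labelled cortex. In the one labelled striatum they were at 0.0023 and 20.1. The estimate therefore cannot show whether libraries of the same mouse vary independently.

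**Figure D5:**
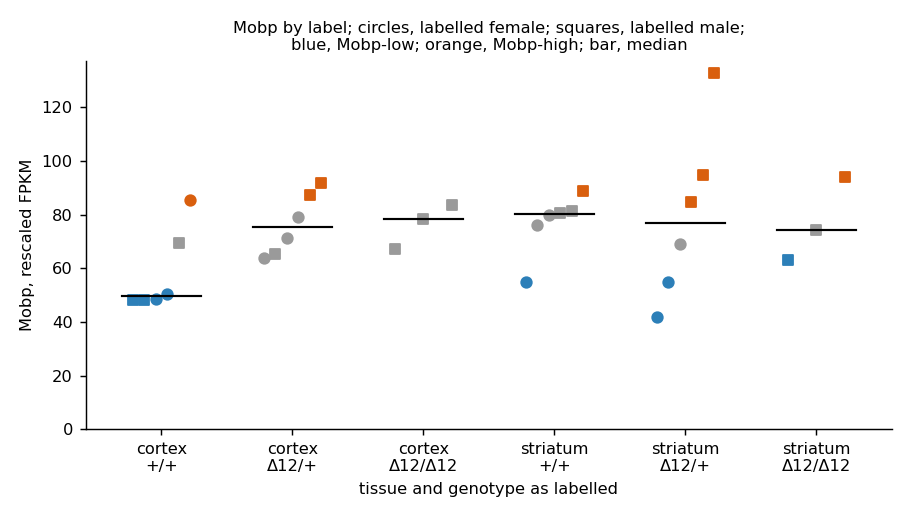
Rescaled FPKM of Mobp (vertical axis, from 0) by labelled tissue and genotype of the 30 cortex-like libraries; circles are labelled female, squares labelled male, blue points Mobp-low, orange points Mobp-high and bars medians. Each labelled group with 6 libraries overlaps the others, and the striatum Δ12/+ group spans 41.7 to 133.

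Across all genes, 0 of 15232 differed for Δ12/+ (0%, 1159 at an unadjusted p under 0.05), 0 for tissue (0%, 980) and 0 for sex (0%, 1205) in limma. These counts compare labels that the regional and sex-linked transcripts go against in the numbers of libraries given above. For Δ12/Δ12, which in these libraries is labelled male throughout, 17 genes were higher and 18 lower (0.23%). No gene of the oligodendrocyte lists was among them, and at a share of 0.23% lists of this size would mostly hold none. Of all 29 lists, Cldn5, a tight junction protein of endothelium (-0.66), and mt-Nd6, a mitochondrial gene (2.12), passed. Those with the smallest adjusted p were the mitochondrial ribosomal RNAs mt-Rnr1 (-2.77) and mt-Rnr2 (-1.82), the pseudogene Rpl31-ps12 (0.65), Atp5k, an ATP synthase subunit (-1.20), and the metallothionein Mt2 (1.08). Rpl31-ps12 is a near copy of a ribosomal protein gene, so its reads may be shared.

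The count for Δ12/Δ12 rested on single libraries. It was 85 higher and 84 lower without cortex +/+ male 3, 53 and 58 without cortex +/+ female 1, 7 and 10 without cortex +/+ male 2, and 9 and 6 without striatum +/+ male 3. It was 3 and 7 without striatum Δ12/Δ12 male 1, 5 and 9 without cortex Δ12/Δ12 male 3, and 10 and 7 without cortex Δ12/Δ12 male 1. The higher genes numbered 28 without cortex +/+ male 1 and 27 without striatum +/+ male 2. The lower genes numbered 9 without striatum +/+ male 1, 9 without striatum Δ12/Δ12 male 3 and 10 without cortex Δ12/Δ12 male 2. The count of 0 for Δ12/+ became 31 without striatum Δ12/+ female 3, the library with the lowest Mobp, 2 without striatum +/+ male 2, and 1 without each of cortex +/+ female 2, cortex +/+ female 3 and striatum +/+ female 3. With the labelled animal as a random effect, the counts for Δ12/Δ12 were 36 and 34. With Mobp as a covariate, 51 genes were higher and 45 lower for Δ12/Δ12.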

How the data were processed

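Total RNA depleted of rRNA was sequenced, and per the labels the libraries are directional. The authors deposited, for each of the 60 libraries, 47597 gene entries with FPKM and interval bounds. The submitters' processing notes name bcl2fastq 2.20, Trimmomatic 0.30, TopHat2 2.0.14, SAMtools 1.3, HTSeq 0.6.1p1 and GRCm38.p4. The tool behind the FPKM is not given in the sources used here. The 23 entries that lacked the status OK in any library were dropped. FPKM were divided by a median-of-ratios factor over 13235 entries. Depth was estimated from the bounds of genes with transcripts of at least 2000 nucleotides. Genes averaging 0.5 rescaled FPKM or more were compared, and slopes and labelled groups were fitted with limma 3.58.1 (R 4.3.3) on log2(rescaled FPKM + 0.5). The script was tested on simulated data with 200 changed genes, split evenly between a log2 change of 1 and of 0.5. The striatum-like slopes recovered 73 and 22 of them, and the Δ12/+ fit 88 and 56. The slopes in the 14 other cortex-like libraries recovered 0 and 0, so a count of 0 there does not show that no gene moved.

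The members, lists and tests were chosen with earlier results of these data known. The high and low groups were chosen by measured Mobp, so their contrast has no test. Named are up to 4 genes per list with the widest difference, outside the lists the 10 widest per direction that do not overlap (mean of at least 2), Mobp, Mog, Slc17a7, Htt, Xist and Ddx3y, and up to 5 genes per labelled comparison. Further list members were named after their values were seen. Of 250 listed genes 245 were measured, and Mbp, Mvd, Ccn2, Rn7s1 and Rn7s2 were not analysed here. The values of 1 list member are not reported here by name. Alternatives were other scalings, pseudocounts, filters, group sizes, covariates and left-out libraries.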

Additional observations from a re-analysis of the deposited data

Results flagged for a closer look

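Among 20 sets of 6 values tested (5 genes in the labelled groups of 6 cortex-like libraries), 1 library stood far from the rest; by chance about 1 set in 20 would. This library, labelled striatum Δ12-line +/+ female 3, had 55.0 rescaled FPKM of Mobp, below the 76.0 to 88.7 of the other 5 libraries of its label. It is 1 of the 8 Mobp-low libraries.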

How the results depend on the processing

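Genes with all Mobp-high above or all below all Mobp-low libraries numbered 19 and 15. They numbered 69 and 0 on FPKM as deposited, 47 and 3 with quantile normalization, 0 and 5 when ordered by Mog, 68 and 80 for 6 against 6 libraries and 4 and 5 for 10 against 10. The last pair follows in part from the number of libraries, and for the others the cause was not tested. The filters, the pseudocount and leaving out striatum Δ12-line Δ12/+ male 3 kept both counts within 1.5 times. Ordered by Mog, differences of genes that had separated the Mobp groups changed sign: Il33 -0.18, Apod -0.15, Bcas1 -0.25, Cwc15 -0.17 and Rpl4 -0.27. The same held for H2afy -0.20, Evl -0.046, Gatm -0.20, Eny2 -0.20, Paf1 -0.25, Fam107a -0.25 and Praf2 -0.082. It also held for Dennd5b 0.42, Rab5c 0.17, Zfp809 0.12, Scn3b 0.22, Pi4ka 0.052, Rfx7 0.12, Ddx23 0.073, Extl1 0.17, Vamp2 0.025 and Ywhag 0.0047. Of the 8 libraries with the highest Mog, 4 were Mobp-low and 1 Mobp-high, so these signs are no separate test of each gene. With quantile normalization, Vamp2 was at 0.012 and Ywhag at 0.022.

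In the striatum-like libraries, 964 genes rose and 605 fell with Mobp. On FPKM as deposited 7307 rose and 376 fell, with quantile normalization 282 fell, and with labelled line and genotype, added after the data were seen, 247 rose and 41 fell. Leaving out each library gave 709 to 1096 and 287 to 743. The other cortex-like libraries gave 0 in each (0 to 0). For Δ12/Δ12, 4 genes were lower on FPKM as deposited, 89 higher with quantile normalization, and 51 higher and 45 lower with Mobp added, and leaving out each library gave 3 to 85 and 6 to 84. For Δ12/+, 1 gene was called on FPKM as deposited, and leaving out each library gave 0 to 31. Tissue and sex stayed at 0 (0 to 0). The cause was not tested.

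Mog, never called between labels, changed sign with quantile normalization for Δ12/+ (0.026), Δ12/Δ12 (0.017) and sex (-0.017), and for sex on FPKM as deposited (-0.074) and with Mobp added (-0.039). Leaving out each library gave -0.021 to 0.13 for Mobp in Δ12/Δ12, -0.14 to 0.010 for Mog in Δ12/Δ12 and -0.052 to 0.077 for Mog between sexes.

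On the whole, libraries of the same labelled sex and number did not deviate together (correlation -0.27 to 0.16, median -0.0046, over 63 pairs across labelled groups). Only 15 of these pairs share a labelled animal, and the others join different genotypes, so pairing by animal was not tested by them. With a replicate block, 11 genes were higher and 10 lower for Δ12/Δ12. The block also joins mice of different genotypes under the same number and takes up labelled sex. With the labelled animal as a random effect, added after the data were seen, they were 36 and 34. FPKM carry no counts, and the bounds cover counting error only.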
